A study of Mus musculus with 2 samples.

Results

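Histone genes were read on both arrays of the series in thymocyte RNA of null and wild-type mice. They were chosen by gene name: every feature annotated to a replication-dependent core or linker histone, or to a histone variant, was taken. This gave 36 of 16504 measured genes, each with 1 feature on the array, 26 of them replication-dependent copies and 10 of them variants. The 26 are termed cluster copies below, although they include H4f16, which lies outside the clusters. For 3 of the 36 (H4f16, H2aw and H2bu2) the older name listed in RefSeq matched. The null (-/-) mice lacked the gene that the study inactivated and the wild-type (+/+) mice carried it; both groups are labelled thymus as source and thymocytes, the developing T cells, in the description. Per genotype, RNA of 3 mice was combined into 1 pool, and the 2 pools were hybridised together on 2 arrays with the dyes exchanged. Strain, sex and age of the mice are not given in the sources used here. The arrays therefore stand for 1 replicate. Each SD below comes from the pair of arrays and is technical; mouse-to-mouse variation is unknown, and no p-value is given.

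Each value is the log2 of null over wild type, so 1 is a doubling in the null pool. The null-in-Cy5 array is always given first and the null-in-Cy3 array after it. The word called is kept for genes past 1.5-fold (0.58 in log2) on both arrays in 1 direction. The direction of the second column is likely and not stated: all 82 of its exact zeros are written -0, as after a change of sign, against none of 80 in the first column, so both columns were read as null over wild type. If it were still the raw dye ratio, every value of the second array would change sign, and with it the means, ranks and shares below. In that turned reading no H4 gene is called, and H1f8, of the variants, is the 1 histone gene called higher. The file holds ratios and no intensities, so it cannot show whether a gene, or a thymocyte marker, was expressed at all. Of 12 listed thymocyte markers, 11 were measured, with a median of -0.12. On both arrays 6 lay below 0 and 2, Thy1 and Dntt, above, where all genes gave 25% each way. Cd4 and Rag1 were called lower, against 1.11% of all genes.

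Histones package DNA: H2A, H2B, H3 and H4 form the core around which DNA winds, and the linker histone H1 binds where it enters and leaves. Most of this protein is made in S phase from many clustered, intronless gene copies whose mRNA ends in a stem-loop instead of a poly(A) tail, while most variant genes lie outside the clusters and give polyadenylated mRNA that does not depend on S phase. Thymocytes divide in bursts around the rearrangement of their receptor genes, which is when cluster copies are used most. The labels name a linear amplification kit for the RNA, and this kind of kit starts from poly(A) tails, so tail-less histone mRNA is copied poorly. What share of the cluster transcripts the arrays saw was not tested.

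Most histone genes read near 0, and a few H4 copies read far above it. In the null pool, 3 of the 36 genes were called higher, H4c4, H4c1 and H4c14, against 0.412% of all genes, and none was called lower, against 1.11%. Without a fold limit, 17 of the 36 lay above 0 on both arrays and 5 below, where all genes gave 25% each way, and the other 14 changed side between the arrays. The median of the 26 cluster copies was 0.11 (array medians 0.04 and 0.28), and that of the 10 variants 0.09 (0.07 and 0.03). Cluster copies stood 0.02 above variants at the median, with a technical SD of 0.20. The sign of this gap also changed between the arrays, which gave -0.03 and 0.25, so the classes were not told apart.

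**Figure D1:**
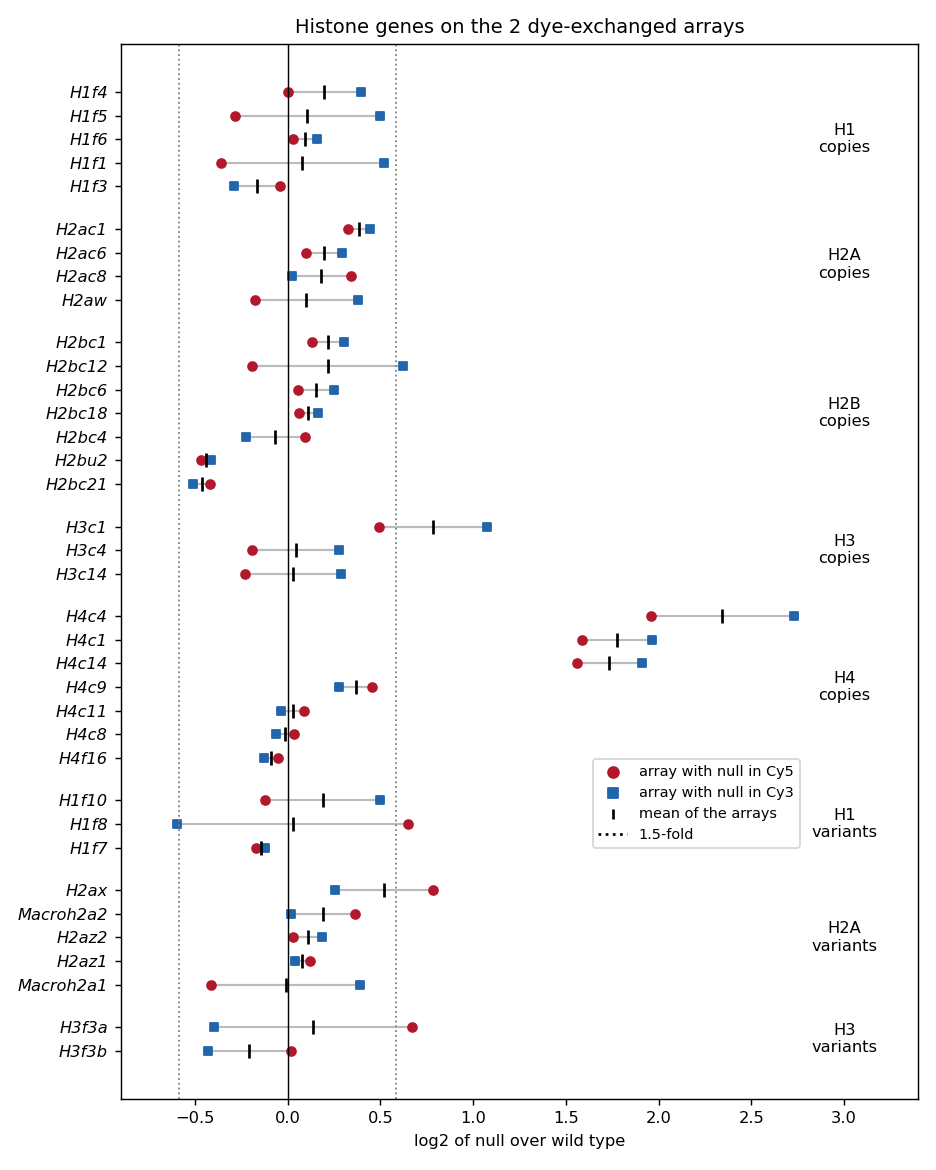
Log2 of null over wild type (horizontal axis) for each of the 36 histone genes, with the null-in-Cy5 array as a red circle, the null-in-Cy3 array as a blue square, their mean as a black bar and 1.5-fold as dotted lines. H4c4, H4c1 and H4c14 lie at 1.56 or above on both arrays, while most other genes straddle or stay near 0.

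H4 is the core histone whose copies all encode nearly the same protein. Of its 7 measured copies, 3 were called higher, where 0.412% of all genes were, and 4 were not called. H4c4 stood at 1.96 and 2.73, a mean of 2.34 (SD 0.54), or 5.07-fold higher in the null pool. H4c1 gave 1.59 and 1.96, a mean of 1.78 (SD 0.26), or 3.42-fold. H4c14, a copy of the second cluster, gave 1.56 and 1.91, a mean of 1.73 (SD 0.25), or 3.33-fold. Among all 16504 genes these means rank 2, 3 and 4 from the top; in the turned reading they are -0.38, -0.19 and -0.17 and rank 16041, 14659 and 14464. H4c1 and H4c14 differed by 0.03 on one array and 0.05 on the other, less than the median SD of 0.06 between features of 1 gene in the 48 genes with 10 or more features. H4c4 lay above H4c1 by 0.37 and 0.77.

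The other 4 H4 copies stayed under 1.5-fold on both arrays. H4c9 was the highest of them, at 0.46 and 0.28, a mean of 0.37 (SD 0.13). H4c11 gave 0.09 and -0.03 and H4c8 0.03 and -0.06, so both changed side. H4f16, the isolated copy outside the clusters once called Hist4h4, gave -0.05 and -0.13. The lowest value of a called copy, 1.56, thus exceeds the highest value of an uncalled one, 0.46. Because the copies have similar coding sequences, a feature can bind mRNA of another copy. Probe sequences were not used here, so which copy gave each signal is uncertain.

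**Figure D2:**
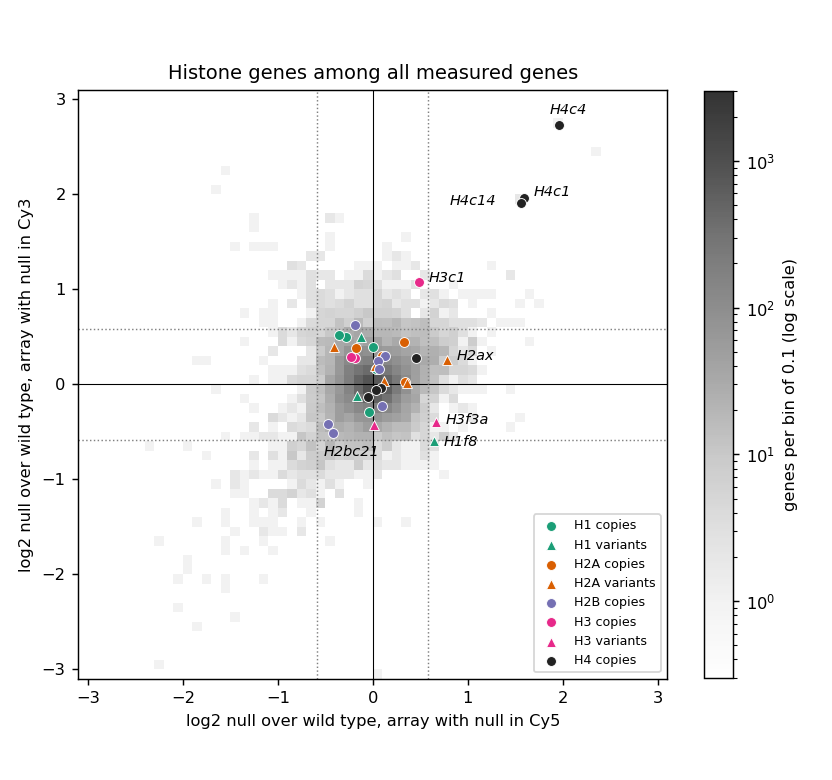
Each histone gene by its log2 of null over wild type on the null-in-Cy5 array (horizontal) and the null-in-Cy3 array (vertical), with circles for cluster copies, triangles for variants, grey for the number of all 16504 genes per bin, and dotted lines at 1.5-fold. H4c4, H4c1 and H4c14 sit apart at the upper right, H3c1 lies past the line on 1 array, and H1f8 falls in the corner where the arrays disagree.

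The start regions of H4 genes are shown because 5 of the 6 copies listed carry the GGTCCG core of the H4-specific promoter element, and called and uncalled copies can be compared. RefSeq windows of build GRCm38.p6, from 250 bases before to 50 bases after the listed start, were found for 31 of the 36 genes; H4c14, H3c1, H2bc21, H2bc4 and H2ax had none. The last 150 bases of each window are printed, ending 50 bases after the start, and capitals mark GGTCCG and TATAAA, the latter the letters of a TATA box. H4c4 (chr13:23581468-23581617, plus strand) and H4c1 (chr13:23761200-23761349, minus strand) were called higher. H4c9 (chr13:22041313-22041462, minus), H4c11 (chr13:21734934-21735083, plus), H4c8 (chr13:23530944-23531093, plus) and H4f16 (chr6:136804382-136804531, minus) were not.
H4c4: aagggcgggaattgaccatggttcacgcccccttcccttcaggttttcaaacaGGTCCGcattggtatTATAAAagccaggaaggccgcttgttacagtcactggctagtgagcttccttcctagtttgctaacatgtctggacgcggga
H4c1: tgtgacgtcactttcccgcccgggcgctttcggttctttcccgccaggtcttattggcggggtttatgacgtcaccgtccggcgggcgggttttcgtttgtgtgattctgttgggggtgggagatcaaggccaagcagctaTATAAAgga
H4c9: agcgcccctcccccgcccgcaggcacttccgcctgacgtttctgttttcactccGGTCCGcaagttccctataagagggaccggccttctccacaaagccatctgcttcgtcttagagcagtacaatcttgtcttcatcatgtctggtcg
H4c11: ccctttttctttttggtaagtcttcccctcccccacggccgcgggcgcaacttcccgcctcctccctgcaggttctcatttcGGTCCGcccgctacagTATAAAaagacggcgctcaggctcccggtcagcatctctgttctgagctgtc
H4c8: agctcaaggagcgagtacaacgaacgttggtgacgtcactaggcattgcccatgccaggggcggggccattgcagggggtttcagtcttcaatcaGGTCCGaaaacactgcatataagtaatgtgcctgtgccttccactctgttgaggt
H4f16: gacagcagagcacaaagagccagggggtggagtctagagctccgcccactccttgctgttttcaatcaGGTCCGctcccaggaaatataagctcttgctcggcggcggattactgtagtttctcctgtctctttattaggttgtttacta

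GGTCCG was found, searching both strands, in the windows of H4c4, H4c9, H4c11, H4c8 and H4f16, in 4 of 9 variant windows, in none of the H1, H2A, H2B and H3 copies and in 8.25% of all 32851 windows. In H4c4 it begins 47 bases before the listed start and in H4c9 46 bases before it, a called and an uncalled copy. The H4c1 window, of a called copy, does not hold these letters, and its TATAAA begins at base 42 counted from the listed start. In H4c8 GGTCCG begins 5 bases before the listed start. The listed starts were not checked here, so whether the H4c1 gene lacks the element was not tested. TATAAA was in 4 of the 6 H4 windows and in 13.6% of all windows. Its position differed: it began 32 bases before the listed start in H4c4 and 2 bases before it in H4c11. In H4c9 it began 137 bases before the start, outside the printed bases. The presence of neither motif separated called from uncalled copies, and whether their position does was not tested. Of the other motifs searched, ATTTGCAT, the octamer known from H2B promoters, was in 4 of 5 H2B and 4 of 4 H2A genes and in none of the 6 H4 windows, against 1.74% of all windows. CCAAT was in every window of H1, H2A, H2B and H3 copies, and in 37.4% of all windows. Of the 6 H4 windows it was in 2 (33.3%), near the 37.4% of all windows. These were H4c4 and H4c1, both called, where it lies on the opposite strand. None of the 4 uncalled copies held it, and H4c14, also called, had no window. With several motifs searched in so few windows, whether CCAAT goes with the calls was not tested. No matches of different motifs overlapped.

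Next to the called H4 copies on the chromosome, other histone genes had lower values. H4c4 lies directly between H3c4 and H2bc6 among protein-coding genes of the same RefSeq build. H3c4 gave -0.19 and 0.28 and H2bc6 0.06 and 0.25, against 1.96 and 2.73 for H4c4. H4c14 lies beside H3c14, which gave -0.23 and 0.29. H4c1 lies beside H3c1, the highest H3 copy. H4c11, H4c9 and H4c8, all uncalled, lie on one side of H4c4. H4c1 lies on the other side with 12 histone genes between, 2 of them H4 copies not measured here.

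**Figure D3:**
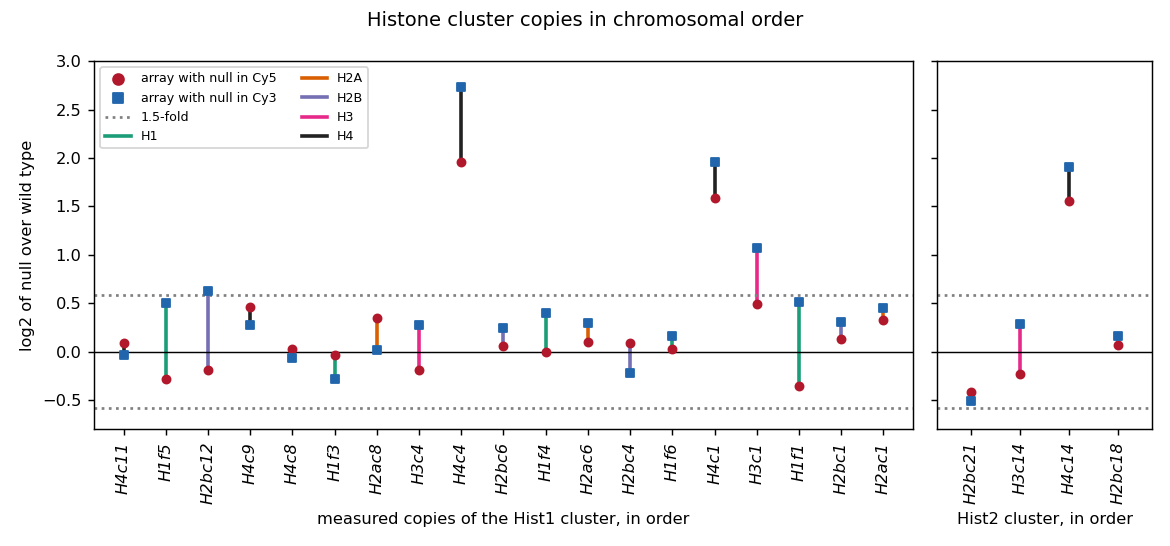
Log2 of null over wild type (vertical axis) for the measured cluster copies in chromosomal order, Hist1 cluster at left and Hist2 cluster at right, with red circles for null in Cy5, blue squares for null in Cy3, lines joining them in the colour of the family and dotted lines at 1.5-fold. H4c4, H4c1 and H4c14 stand above their neighbours, of which H3c1, beside H4c1, is highest at 0.49 and 1.07.

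Of the H3 copies, which encode the replication-coupled forms of H3, 3 were measured. H3c1 was above 0 on both arrays, at 0.49 and 1.07, a mean of 0.78 (SD 0.41), and passed 1.5-fold only with null in Cy3, as 6.46% of all genes did on a single array. Its mean ranks 48 among all genes; in the turned reading it is -0.29 and ranks 15643. H3c4, described above, and H3c14 changed side between the arrays and had means of 0.04 and 0.03.

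H2A copies gave small values, all with means above 0 (median 0.19, or -0.0797 in the turned reading). H2ac1, a copy known from testis, was highest at 0.32 and 0.45, a mean of 0.39 (SD 0.09). H2aw, from a small separate cluster, was lowest at -0.18 and 0.38, a mean of 0.10 (SD 0.39). H2ac6 and H2ac8 had means of 0.20 and 0.18 and were above 0 on both arrays.

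H2B copies held the 2 lowest histone genes, H2bc21 and H2bu2. In the turned reading these have means of 0.0442 and -0.0273, and H1f1 (-0.44) and H2bc12 (-0.41) are lowest. H2bc21, known in mouse for its use in olfactory neurons and in human cells for a polyadenylated transcript, gave -0.42 and -0.51, a mean of -0.46 (SD 0.06). H2bu2, which lies near H2aw, gave -0.47 and -0.41, a mean of -0.44 (SD 0.04). Neither reached 1.5-fold on either array, but their arrays agree closely. H2bc1, the testis copy that lies beside H2ac1, gave 0.13 and 0.30, the highest H2B mean at 0.22 (SD 0.12). H2bc12 passed 1.5-fold with null in Cy3 only, at -0.19 and 0.62. H2bc6, H2bc18 and H2bc4 had means of 0.15, 0.11 and -0.07.

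The 5 linker H1 copies stayed under 1.5-fold on both arrays. H1f4 was highest, at 0.0015 and 0.40, a mean of 0.20 (SD 0.28). H1f3 was lowest, at -0.04 and -0.29, a mean of -0.16 (SD 0.17). H1f5 gave -0.28 and 0.50 and H1f1 gave -0.36 and 0.52, so these copies changed side. H1f6, the testis H1, gave 0.03 and 0.16. The testis copies H2ac1, H2bc1 and H1f6 were all above 0 on both arrays, where 25% of all genes were. Their median was 0.22, and none was called. In the turned reading their means are -0.06, -0.09 and -0.06. Of 7 listed germ cell markers, Stra8 was called higher (1.40 and 1.15), where 0.412% of all genes were, and the median of the 7 was 0.01.

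Among the variants, H2ax had the highest mean, although in the turned reading H1f8 (0.62) and H3f3a (0.53) exceed it (0.26). H2ax, the H2A form that is phosphorylated at DNA breaks and whose gene also gives a stem-loop mRNA, stood at 0.78 and 0.26, a mean of 0.52 (SD 0.37), and passed 1.5-fold with null in Cy5 only. H3f3a and H3f3b encode the same replacement histone, H3.3. H3f3a gave 0.67 and -0.40, past 1.5-fold on the first array and on the other side of 0 on the second, and H3f3b gave 0.02 and -0.43. Their means were 0.14 (SD 0.75) and -0.21 (SD 0.31), so a difference between them is within the technical spread.

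The H2A.Z genes stayed close to 0 and the macroH2A genes varied more. H2az1 and H2az2 encode H2A.Z, a histone of promoter nucleosomes, and gave 0.12 and 0.04 for H2az1 and 0.03 and 0.19 for H2az2. Macroh2a1 and Macroh2a2 encode forms with a large extra domain. Macroh2a1 gave -0.41 and 0.39, and Macroh2a2 0.36 and 0.02.

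The variant H1 genes gave no call either. H1f10, a linker histone of somatic cells, gave -0.12 and 0.50. H1f7, the spermatid form, gave -0.17 and -0.12. H1f8, the oocyte form, gave 0.65 and -0.59, at least 1.5-fold opposite ways (SD 0.88), as did 0.436% of all genes. For H1f8 the mean of 0.03 therefore describes neither array.

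Cluster copies read higher on the null-in-Cy3 array more often than genes at large. Of the 26, 18 were higher there (69.2%), against 47.7% of all genes, and 4 of 10 variants were. By family this was 4 of 5 H1, 3 of 4 H2A, 5 of 7 H2B, 3 of 3 H3 and 3 of 7 H4 copies. The 3 of H4 were the called copies H4c4, H4c1 and H4c14, and none of the 4 uncalled ones was. The median gap between the arrays was 0.18 for the 26. In the turned reading, 6 of the 26 were higher on the null-in-Cy3 array (23.1%), 3 of 10 variants and 49.6% of all genes. With each orientation hybridised on a single array, dye and array cannot be told apart.

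Among genes that make, process and carry histones, calls were 1 in each of 2 lists, both upward. Of 30 listed genes of histone mRNA synthesis and 3′ processing, 28 were measured, 1 was called higher, where 0.412% of all genes were, and none lower, with a median of 0.11 (array medians 0.09 and 0.20). The called gene was Ccne2, a cyclin of S phase entry, at 0.98 and 0.93. Slbp, whose protein binds the stem-loop of histone mRNA, gave 1.00 and 0.23. E2f1, a transcription factor of S phase genes, gave 0.30 and 0.66. The lowest were Yy1 at a mean of -0.18 (SD 0.01) and Lsm1, of mRNA decay, at -0.07 (SD 0.06). Hinfp, which binds the H4 promoter element in human, gave 0.11 and 0.09, and Npat, the shared activator of cluster copies, -0.47 and 0.50; these were picked after their values were seen.

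Of 32 listed histone chaperones and import factors, 29 were measured and 15 lay above 0 on both arrays, where 25% of all genes did. Their median was 0.21 (array medians 0.24 and 0.22). Npm1, a nucleolar chaperone, was called higher at 1.08 and 0.67, where 0.412% of all genes were, and none was called lower. Chaf1a, a subunit of the assembly factor CAF-1 that loads H3 and H4 behind the fork, gave 0.31 and 0.92. Set, an acidic chaperone, gave 0.24 and 0.98. Cabin1 and Ubn1, partners of the replication-independent HIRA chaperone, were lowest, with means of -0.16 (SD 0.06) and -0.14 (SD 0.18).

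S phase genes had a higher median than cluster copies other than H4; in the turned reading the medians are 0.0103 and -0.0959, and no gene of either set is called. Of 32 listed, 30 were measured and 29 were above 0 on both arrays, where 25% of all genes were. Their median was 0.57 (array medians 0.56 and 0.53). The helicase subunits Mcm3 and Mcm6 were called higher, with means of 0.75 (SD 0.04) and 0.87 (SD 0.03). So were the origin loader Cdc6 (mean 0.76), the primase subunit Prim1 (0.70) and the dUTPase Dut (0.97), and none was called lower. Of all genes, 0.412% were called higher and 1.11% lower. Gins2 was lowest, at -0.12 and 0.01. The 19 cluster copies of H1, H2A, H2B and H3 had a median of 0.11 (array medians 0.0015 and 0.29), and none was called. Cenpa, the H3 variant of centromeres that is made late in the cell cycle, gave 0.62 and 0.08, and its loader Hjurp gave -0.21 and 0.29.

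**Figure D4:**
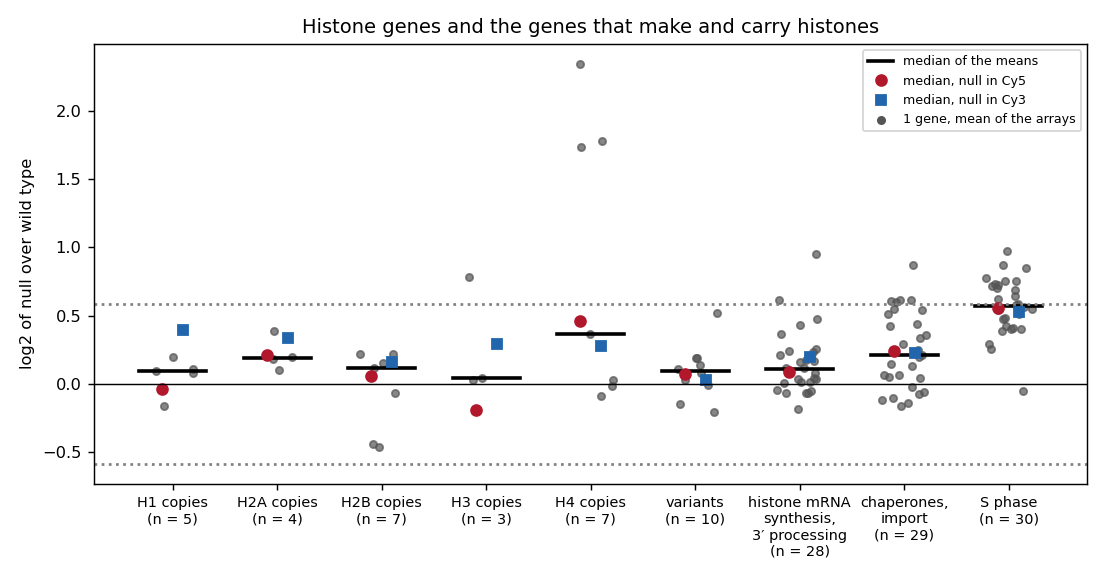
Mean log2 of null over wild type per gene (grey points) for histone copies by family, variants and 3 lists of related genes, with the median of the means as a black line, each array's median as a red circle (null in Cy5) or blue square (null in Cy3), and dotted lines at 1.5-fold. The S phase median of 0.57 lies above all other medians shown, while the H4 points split into 3 high and 4 low ones.

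Markers of other cells also differed between the pools. All 6 neutrophil markers were above 0 on both arrays, where 25% of all genes were, with a median of 0.83. S100a8, S100a9, Ngp and Camp were called higher, against 0.412% of all genes. The medians were -0.26 for 4 measured B cell markers, -0.16 for 5 of macrophages and dendritic cells, -0.23 for 5 of thymic epithelium and -0.29 for 4 of erythroid cells. Among these, Cd79a, Cd74, Krt5 and Epcam were called lower, against 1.11% of all genes. The lists were not uniform. On both arrays 4 of 4 B cell, 4 of 5 macrophage and dendritic cell, 3 of 5 epithelial and 2 of 4 erythroid markers lay below 0. All genes gave 25%. The highest means were -0.04 for Pax5 of B cells, 0.06 for Adgre1 of macrophages and 0.13 for Slc4a1 of erythroid cells. Psmb11 and Foxn1 of thymic epithelium had means of 0.06 and 0.04, and both changed side. In pooled RNA, more cells of a type and more RNA per cell cannot be told apart. In the turned reading none of these markers is called. The part of these cells, and of dividing thymocytes, in the H4 values was not tested.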

How the data were processed

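Per the labels, RNA was pooled from 3 mice of each genotype and amplified, and every dye channel received 750 ng of cRNA for a 17 h hybridisation to a 2-colour Agilent array. Signals came from Feature Extraction 7.1, a version given by the submitters' processing notes. The authors deposited log ratios whose base, centring and direction are not stated in the sources used here. They were read as log10, the convention of this software, and converted to log2 without centring (deposited medians -0.00141 and 0.00112). The columns correlated with r = 0.216 over the 18218 features with 1 gene symbol. Over 4159 features with none, which were not used, r was -0.861, and over all 22393 it was -0.447. A further 16 features have several symbols. Symbols were updated by gene ID through RefSeq for 18175 features, and features of a gene were averaged. Gene positions in RefSeq gave the chromosomal order, the neighbours and the counts of genes between them. The plot of cluster copies in chromosomal order rests on these positions. The array's own build is not given. The calling step was tested on simulated data with more than 1 feature per gene and independent noise on each array. That checks the code and gives no error rate for the calls here.

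The members, lists and calling rule were chosen with earlier results of these data known. Every member is named; from the lists, called genes and at most 4 others, the highest and lowest, are named, with Hinfp and Npat added after their values were seen. With 1 pool per genotype no test was run, and the number of arrays limits the precision. Alternatives were each array alone, centring, other fold limits, other rules for several features, the log base and the raw dye reading. The targeted gene is not reported here. Python 3.11.15, numpy 2.4.6, pandas 2.3.3 and matplotlib 3.10.9 were used.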

Additional observations from a re-analysis of the deposited data

How the results depend on the processing

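No paired analysis was possible because the same 2 pools were on each array. Taken as raw dye ratios in both columns, the second reading of the file, H4c4 would stand at -0.38, H4c1 at -0.19 and H4c14 at -0.17. Then 0 cluster copies and 1 variant would be called higher, 16 of all genes higher and 56 lower, the cluster median would be -0.0907 and its gap to the variants -0.20. The ranks, shares and list medians given for this turned reading were added after seeing the data. With null in Cy5 alone, 3 variants passed as higher, and 381 of all genes as higher and 407 as lower. With null in Cy3 alone, 5 cluster copies were higher and 1 variant lower, 482 of all genes higher and 442 lower, with a cluster median of 0.28, a variant median of 0.0292 and a gap of 0.25. At a fold limit lower than 1.5, 5 cluster copies were higher and 2 lower, with 378 and 479 of all genes; at 2-fold, 7 and 43 of all genes, and the 3 H4 copies stayed called. Read as log2, the deposited values gave 1 cluster copy, 2 genes higher and 4 lower, and a variant median of 0.0282. Centring, with deposited medians of -0.00141 and 0.00112, moved none of the 36 genes by more than its SD between arrays. Both rules for several features could not move them, since each has 1 feature. Leaving out records that several symbols share changed nothing, since no such record was found. Among genes whose arrays differ by at most 0.5, H4c4 drops out. Signal over background is unknown, since the file holds no intensities.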

Other observations

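One feature annotated to 2 H2A genes at once entered no gene. Its log2 of null over wild type was -0.0076 on the null-in-Cy5 array and 0.04 on the other.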
